A study of Mus musculus with 2 samples.

Results

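Phosphodiesterases and adenylyl cyclases, the enzymes that degrade and make cyclic nucleotides, were examined in nuclei of fetal mouse lung. The members were the genes named Pde or Adcy with a number (and, for phosphodiesterases, a letter from a to h) in the gene lists of both libraries: 24 phosphodiesterase and 10 adenylyl cyclase genes, 34 of 32285 genes in all, lying on 19 chromosomes. 1 other gene that such a name matches was not used here. The fetuses were wild type C57BL/6J. Their mothers had been sensitised with ovalbumin (OVA) in alum and given OVA intranasally during pregnancy, or had received alum in PBS and intranasal PBS. Lungs were taken on gestation day 18, those of 8 fetuses pooled for the OVA library and of 9 for the PBS library, each litter from a single dam, so that each group is 1 library and no difference between them could be tested. The cells loaded were a mix of sorted group 2 innate lymphoid cells (ILC2s; CD45+ Lin- ST2+), other immune cells (CD45+) and epithelium (EpCAM+), and RNA and open chromatin were read from the same nuclei.

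Adenylyl cyclases convert ATP to cAMP, most of them at the plasma membrane downstream of receptors coupled to Gs proteins. cAMP acts through protein kinase A, EPAC and CREB, restrains many immune cells and relaxes smooth muscle. Phosphodiesterases end the signal by hydrolysing cAMP, cGMP or both, and families differ in substrate and regulation, so the set of enzymes a cell holds shapes the signal it can carry.

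Nuclei were assigned to a type when at least 3 of its 10 fixed marker genes had a unique molecular identifier (UMI) and the type led every other by at least 2 markers. No member served as a marker. Of 4279 PBS and 4996 OVA nuclei kept, 41.1% and 51.2% were assigned, and the comparison was limited to the 7 types with 50 or more nuclei on both sides. These were ILC2 (295 PBS and 486 OVA nuclei), macrophage (90 and 189), alveolar type 2 (AT2; 466 and 320), alveolar type 1 (AT1; 177 and 261), fibroblast (511 and 940), myofibroblast or smooth muscle (61 and 89) and pericyte (54 and 94), each name meaning nuclei that carry its markers. All 10 markers of each of these types had UMIs in its own nuclei. The genes leading a type besides its markers included Calca, Ret and Itgb3 in ILC2 and Atp6v0d2 and Ccl6 in macrophage nuclei. They included Hc and Lyz1 in AT2 and Msln (itself a fixed mesothelial marker) and Col4a4 in AT1 nuclei. Among the mesenchymal types they included Col25a1 in fibroblast, Synpo2 and Rgs6 in myofibroblast or smooth muscle and Pdzd2 and Postn in pericyte nuclei. The last 3 types were not sorted for, so their numbers describe the libraries and not the lung. Of nuclei in clusters that the same markers name macrophage, 1118 and 1367, the assignment took 88 and 184, and it therefore covers a small part of them. Of those in clusters named myofibroblast or smooth muscle, 679 and 568, it took 60 and 89. The OVA library was deeper (median 1214 against 649 nuclear-gene UMIs per nucleus), mitochondrial genes took 29.2% of its gene UMIs against 45.2%, and 54 barcode sequences occurred in both libraries. Levels below are CPM, that is UMIs per 1000000 nuclear-gene UMIs, pooled over all nuclei given that type. Brackets give exact 95% Poisson intervals, which cover counting error only.

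The 4 stretches upstream of member genes shown first were chosen because peaks of open chromatin over them differed between types and the results return to each. Each line gives the 250 bases before a RefSeq transcript start (GRCm38.p6), 5′ to 3′, with CG dinucleotides in capitals.
Adcy2, chr13:68999542-68999791, minus strand: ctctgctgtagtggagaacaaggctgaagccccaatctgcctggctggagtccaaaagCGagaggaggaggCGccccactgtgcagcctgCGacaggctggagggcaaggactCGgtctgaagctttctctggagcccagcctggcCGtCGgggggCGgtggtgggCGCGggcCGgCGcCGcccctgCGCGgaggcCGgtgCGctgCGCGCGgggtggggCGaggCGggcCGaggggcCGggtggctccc
Adcy7, chr8:88293954-88294203, plus strand: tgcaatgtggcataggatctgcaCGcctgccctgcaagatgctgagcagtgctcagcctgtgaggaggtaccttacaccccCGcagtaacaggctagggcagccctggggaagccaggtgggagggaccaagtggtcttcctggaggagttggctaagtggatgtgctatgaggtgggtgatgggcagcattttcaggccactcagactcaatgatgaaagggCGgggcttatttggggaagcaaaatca
Pde4d, chr13:108653927-108654176, plus strand: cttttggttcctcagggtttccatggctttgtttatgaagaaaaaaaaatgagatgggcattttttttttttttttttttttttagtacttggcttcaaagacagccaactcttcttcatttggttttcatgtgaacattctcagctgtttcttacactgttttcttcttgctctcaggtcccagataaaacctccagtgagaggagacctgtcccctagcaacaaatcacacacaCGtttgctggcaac
Pde8b, chr13:95223051-95223300, minus strand: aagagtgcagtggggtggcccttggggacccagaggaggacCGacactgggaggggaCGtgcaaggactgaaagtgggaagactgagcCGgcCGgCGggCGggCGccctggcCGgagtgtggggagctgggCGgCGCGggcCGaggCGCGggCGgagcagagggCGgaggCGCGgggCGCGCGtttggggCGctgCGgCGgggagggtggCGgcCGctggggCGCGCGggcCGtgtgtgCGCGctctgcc

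The Adcy2 and Pde8b stretches held 23 and 32 CG dinucleotides and 73.2% and 77.6% G or C, whereas those of Adcy7 and Pde4d held 3 and 1. RefSeq promoters were at hand for 25 members, 49 starts in all, with a median of 6 CG per stretch, equal to the median of 6 over all 32851 promoters. The cAMP response element TGACGTCA, the palindrome that CREB binds, was in none of the 49 member stretches and in 1.55% of all stretches. Its half-site TGACG, searched on both strands, was in 7 of 49 (14.3%) and in 17.8% of all, and none of the 4 stretches printed here held it. A match or its absence describes these letters only.

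The members were unevenly used. Over the 7 types 21946 member UMIs were counted, 22 members had at least 50 UMIs, 11 had 1 to 49, and Pde6c, a cone photoreceptor subunit, had 0. In 19 of the 22 the same type held the highest level in both libraries. Over all 10234 genes with at least 50 UMIs that share was 53.2%. Members and all genes were not matched for UMIs above that minimum. For 7 members the highest type also stood above the next by its counting interval in both libraries: Pde7a, Pde7b, Pde4b, Pde4d, Pde3a, Adcy8 and Adcy5. The median of the log2 ratio of the highest over the next type was 0.79 for PBS and 1.04 for OVA. Of the 19, 6 were highest in pericyte nuclei, 3 each in ILC2, macrophage and myofibroblast or smooth muscle nuclei, 2 in AT1 and 1 each in AT2 and fibroblast nuclei. Pericyte nuclei thus held 31.6% of these members, against 12.1% of all genes with the same highest type in both libraries, macrophage nuclei 15.8% against 23.1%, and ILC2 nuclei 15.8% against 15.9%. Of the 6 pericyte members, Pde3a and Adcy8 stood above the next type by their intervals in both libraries. Adcy3 did so in the PBS library alone, and Pde1a, Pde4a and Adcy9 in neither. Reads from introns are counted in nuclei, and the members were long (median span 91.4 kb against 31.5 kb for all genes of this comparison), so levels of different genes are compared only per 100 kb of gene span.

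**Figure D1:**
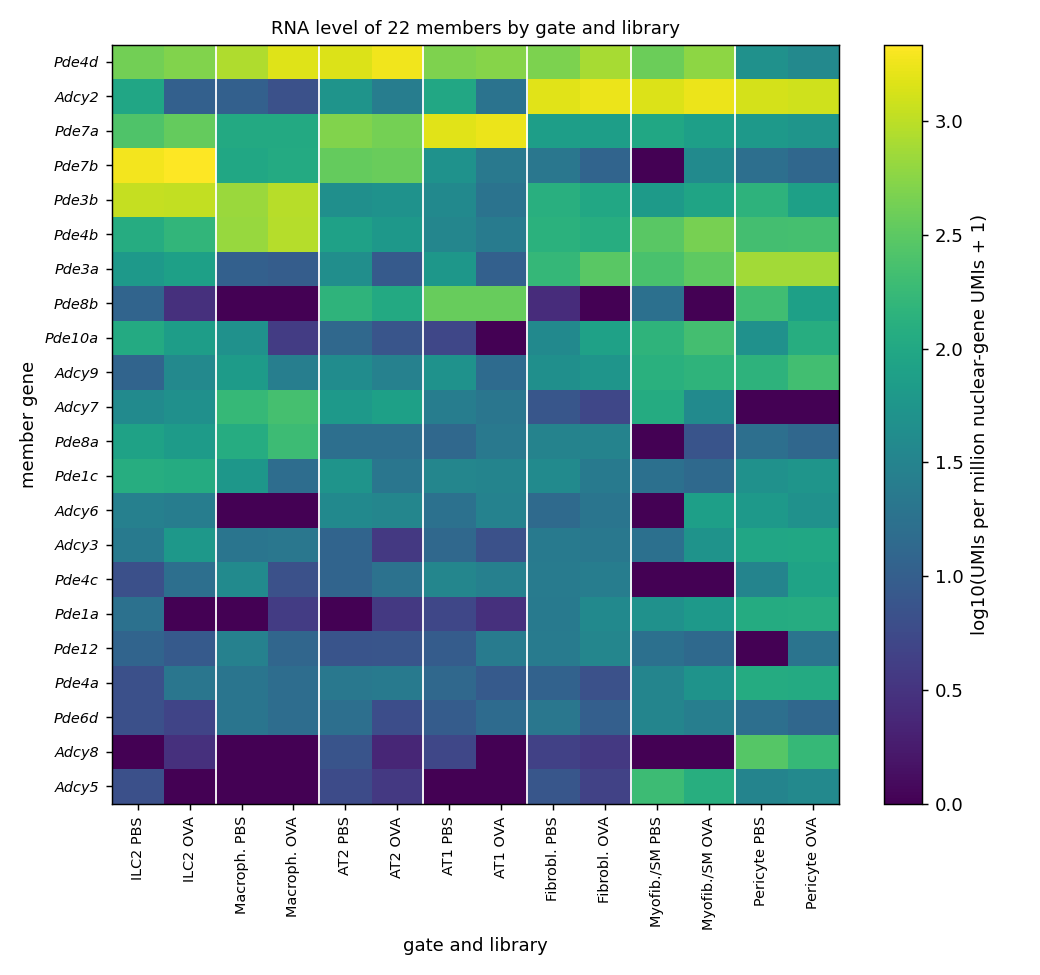
RNA level of the 22 members with at least 50 UMIs (rows, ordered by total UMIs) in 7 types, with the PBS and OVA library side by side; colour is log10 of the level in CPM of nuclear-gene UMIs plus 1. Pde7b and Pde3b are bright in ILC2 columns, Pde7a in AT1 columns and Adcy2 in the fibroblast, myofibroblast and pericyte columns of both libraries.

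Among the adenylyl cyclases, Adcy2 had the most UMIs and was high in the 3 mesenchymal types. Adcy2, which G protein beta-gamma subunits stimulate, spans 379.5 kb of chromosome 13. Its level in fibroblast nuclei was 1547 (1448 to 1650) in the PBS and 1738 (1680 to 1797) in the OVA library. In myofibroblast or smooth muscle nuclei it was 1462 (1177 to 1795) and 1734 (1534 to 1952), and in pericyte nuclei 1306 (1040 to 1619) and 1244 (1080 to 1426). Fibroblast and myofibroblast levels did not differ beyond counting error in either library. In the other 4 types Adcy2 lay between 5.79 and 98.9. After thinning every nucleus to 500 nuclear-gene UMIs, which left out 78 PBS and 12 OVA fibroblast and 17 and 0 macrophage nuclei, 212 of 433 PBS and 496 of 928 OVA fibroblast nuclei (48.96% and 53.5%) had an Adcy2 UMI, against 1.37% and 0.529% of macrophage nuclei, and without thinning the shares were 64.6% and 87.8% against 1.11% and 1.06%. Median depths were 847 and 1730 nuclear-gene UMIs for fibroblast nuclei and 1009 and 1582 for macrophage nuclei.

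The chromatin at the CG-rich Adcy2 start printed above was also most open in mesenchymal types. Its peak held 76.2 PBS and 67.5 OVA CPM (here of transposition counts in peaks) in fibroblast nuclei and 58.6 and 70.1 in pericyte nuclei. In myofibroblast or smooth muscle nuclei it held 35.8 (21.9 to 55.4), below fibroblast nuclei, and 76.6 (57.7 to 99.7). It held 1.84 and 3.99 in ILC2 and 4.41 and 1.03 in macrophage nuclei. AT2 nuclei were between, at 16.9 and 19.5. Of 7 peaks within the gene that overlapped between libraries, 4 were highest in fibroblast nuclei in both, with at least 10 counts there in each. One of them, chr13:68777695-68778658, held 10.8 and 12.8 CPM there (34 and 86 counts) and 0.921 and 2.60 in the next type.

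The other cyclases had fewer UMIs and differed in their highest type. Per 100 kb of span, Adcy7 in macrophage nuclei, at 298 and 392, was near Adcy2 in fibroblast nuclei, at 408 and 458. Adcy7, a cyclase known from blood cells, was highest in macrophage nuclei at 171 (102 to 271) and 226 (178 to 282), followed in the OVA library by AT2 nuclei at 76.8, and had 0 UMIs in pericyte nuclei, with interval limits of 58.0 and 22.2. Adcy8, stimulated by calcium and calmodulin, was found mostly in pericyte nuclei, with 18 and 28 of its 60 UMIs there and levels of 283 (168 to 447) and 168 (112 to 243). No other type exceeded 6.28. Adcy5, inhibited by calcium, was highest in myofibroblast or smooth muscle nuclei, at 193 (99.6 to 337) and 121 (72.7 to 188). Adcy9, a broadly expressed cyclase that forskolin barely stimulates, was highest in pericyte nuclei at 142 (64.7 to 269) and 210 (146 to 292), without separating from myofibroblast or smooth muscle nuclei at 129 and 146. Adcy3 was highest in pericyte nuclei (94.4 and 96.2), from 6 and 16 UMIs, and Adcy6 had a different highest type in each library. Adcy1, Adcy4 and the soluble cyclase Adcy10 had 17, 17 and 28 UMIs in all.

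At Adcy7 the order of open chromatin depended on the start. The peak over the stretch printed above, near the 3′-most of 3 RefSeq starts, held 27.5 and 18.0 CPM in macrophage nuclei (25 and 35 counts) and 6.44 and 6.91 in ILC2 nuclei. The peak at another start, upstream, was as high in ILC2 nuclei (28.5 and 29.5) as in macrophage nuclei (29.7 and 22.1).

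Of the cAMP-specific phosphodiesterases, the family 7 pair had different highest types. Pde7b was highest in ILC2 nuclei, at 1884 (1690 to 2094) in the PBS and 2165 (2040 to 2295) in the OVA library, 5.29-fold and 5.84-fold above AT2 nuclei at 356 (311 to 406) and 371 (329 to 417). The other 5 types compared lay at or below 110, while mast cell or basophil nuclei (29 and 63, too few for the comparison) held 1071 (624 to 1715) and 930 (715 to 1190). After thinning, 50.7% of 148 PBS and 58.6% of 420 OVA ILC2 nuclei had a Pde7b UMI, against 1.15% and 0.539% of fibroblast nuclei, and unthinned shares were 53.6% and 68.7% against 2.35% and 2.02%. Thinning left out 147 PBS and 66 OVA ILC2 nuclei, whose type had a median depth of 501 and 924 UMIs. Its paralogue Pde7a was highest in AT1 nuclei, at 1517 (1366 to 1680) and 1739 (1627 to 1857), 2.97-fold and 4.02-fold above AT2 nuclei at 510 and 432. In ILC2 nuclei Pde7a was 263 and 350. Per 100 kb of span, ILC2 nuclei held 576 and 662 CPM of Pde7b against 298 and 397 CPM of Pde7a, whereas AT1 nuclei held 15.1 and 6.51 Pde7b against 1720 and 1971 Pde7a.

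The starts of these 2 genes did not show that difference. At Pde7a starts AT1 nuclei had 104 and 85.5 CPM and pericyte nuclei, where its RNA was 62.9 and 54.1, had 95.9 and 112. At Pde7b starts ILC2 nuclei had 34.1 and 24.5 and fibroblast nuclei, with 20.2 and 10.8 of RNA, had 33.0 and 26.3. Within Pde7b, 3 of 25 shared peaks were highest in ILC2 nuclei of both libraries with at least 10 counts there in each. The peak at chr10:20429954-20430846, 118 kb from the nearest annotated start, held 5.98 and 6.12 CPM there (13 and 23 counts) and 0.367 and 1.24 in AT2 nuclei, the next type. The one at chr10:20601002-20601887 held 6.90 and 5.05 CPM (15 and 19 counts) against 0.733 and 1.24. At such counts the types with few nuclei cannot be placed below ILC2 nuclei.

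**Figure D2:**
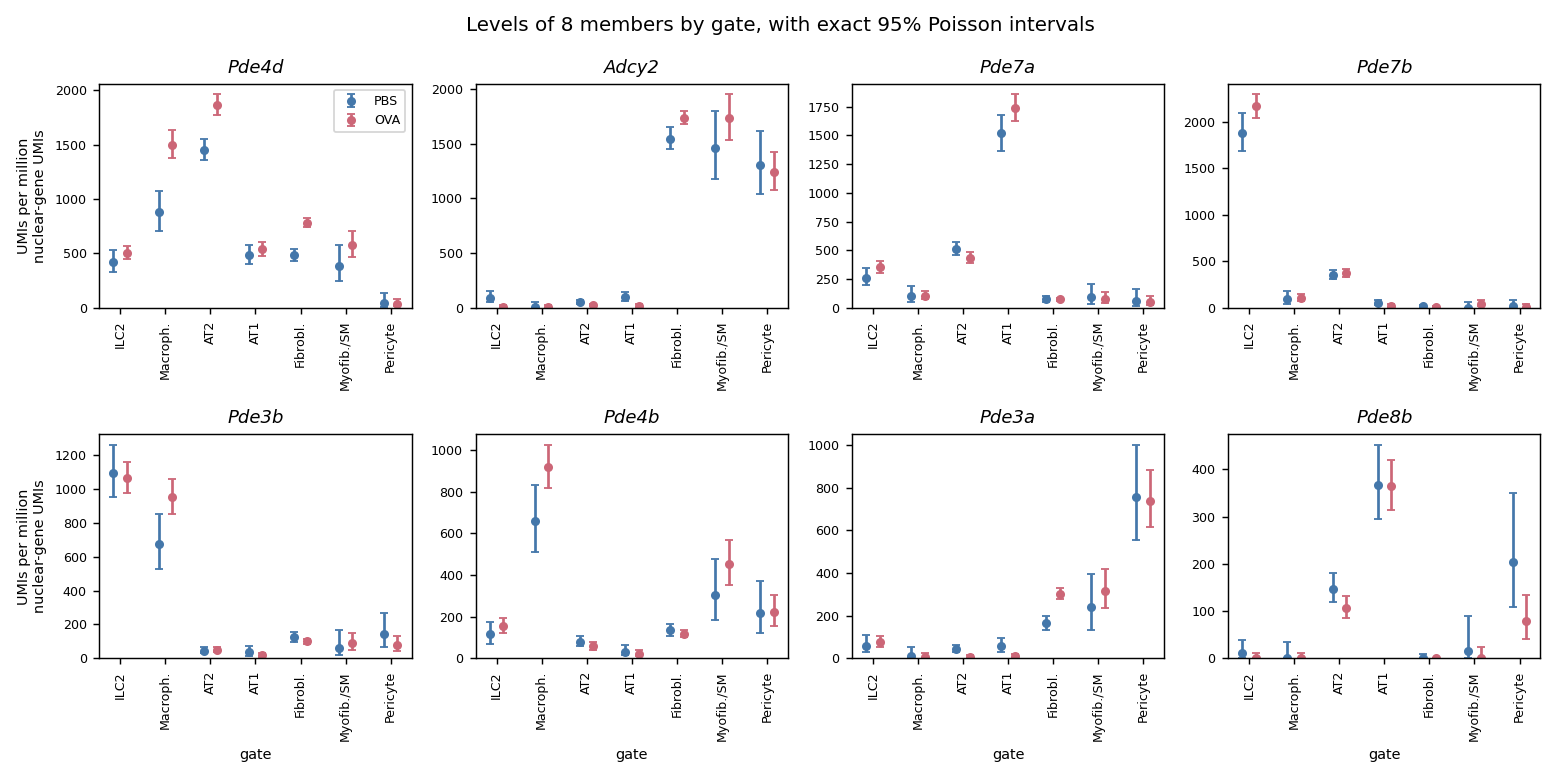
Levels of the 8 members with most UMIs in each type, PBS in blue and OVA in red, as CPM of nuclear-gene UMIs with exact 95% Poisson intervals; each vertical axis starts at 0. Pde7b at 1884 and 2165 stands apart in ILC2 nuclei, Pde7a at 1517 and 1739 in AT1 nuclei, and Pde4d is lowest in pericyte nuclei at 47.2 and 36.1.

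In family 4, the target of roflumilast, most UMIs came from Pde4d and Pde4b, the long genes. Per 100 kb of span, Pde4a was at 232 and 228 in pericyte nuclei, Pde4d at 96.5 and 124 in AT2 nuclei and Pde4b at 126 and 177 in macrophage nuclei. The Pde4a values rest on 7 and 18 UMIs, and no order between these genes is drawn from them. Pde4d, whose span of 1504 kb is the longest of the members, was highest in AT2 nuclei at 1451 (1359 to 1548) and 1863 (1768 to 1962), followed by macrophage nuclei at 876 (706 to 1075) and 1500 (1374 to 1635). ILC2 nuclei held 422 and 506. Pericyte nuclei stood apart at the low end with 47.2 (9.73 to 138) and 36.1 (13.2 to 78.5), from 3 and 6 UMIs, while their open chromatin over the gene, 296 and 253 CPM, was 0.672 and 0.565 times that of AT2 nuclei. Mast cell or basophil nuclei held more Pde4d than any of the 7 types compared, 3213 (2392 to 4225) and 4089 (3622 to 4600). Pde4b was highest in macrophage nuclei, at 657 (511 to 832) and 918 (820 to 1025), with myofibroblast or smooth muscle nuclei next at 305 and 451. Over all 1118 and 1367 nuclei of the clusters named macrophage, Pde4b was 749 and 942 and Pde4d 1182 and 1461. Pde4a was highest in pericyte nuclei, at 110 (44.3 to 227) and 108 (64.1 to 171), and Pde4c had a different highest type in each library.

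The Pde4d start printed above lay under a peak that was highest in AT2 nuclei. The peak, chr13:108653956-108654867, held 8.62 CPM in PBS and 15.5 in OVA AT2 nuclei (47 and 50 counts), 3.58 and 2.38 in the next type (2 counts in each library), and 0 in ILC2 nuclei of both libraries. It is 1 of 83 peaks shared within the gene, of which 9 were highest in AT2 nuclei of both libraries with at least 10 counts there. Such shares were not computed for the peaks of all genes. A second, chr13:109315181-109316206, held 41.1 and 41.5 there against 15.5 and 14.25 in AT1 nuclei.

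Family 8, which has high affinity for cAMP, again had different highest types. Pde8b was highest in AT1 nuclei at 367 (295 to 451) and 364 (314 to 420), with AT2 nuclei at 148 and 107 and pericyte nuclei at 204 (109 to 350) and 78.1 (41.6 to 134), and had 0 UMIs in macrophage nuclei, with interval limits of 35.1 and 10.7. The peak over the CG-rich stretch printed above was instead highest in pericyte nuclei, at 48.0 and 46.7 CPM, against 22 and 17.8 in AT1 nuclei. Pde8a was highest in macrophage nuclei at 114 and 191, followed by ILC2 nuclei at 82.1 and 67.4, from which it separated only in the OVA library (log2 ratio 0.48, -0.75 to 1.67, and 1.505, 0.89 to 2.14). Within it the peak chr7:81319548-81320409 held 19.8 and 15.4 CPM in macrophage nuclei (18 and 30 counts) and 3.58 and 2.79 in the next type.

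Of the phosphodiesterases that hydrolyse cAMP and cGMP, the family 3 pair, which cGMP inhibits, also had different highest types. Pde3b was high in ILC2 nuclei, at 1095 (949 to 1258) and 1064 (977 to 1157), and in macrophage nuclei, at 676 (528 to 853) and 950 (850 to 1058). The 2 types differed beyond counting error in the PBS library and not in the OVA library. All other types compared lay at or below 142. Pde3a was highest in pericyte nuclei at 755 (557 to 1001) and 739 (614 to 882), then in myofibroblast or smooth muscle nuclei at 241 and 318 and fibroblast nuclei at 165 and 304. Mast cell or basophil nuclei held 252 (68.7 to 645) and 384 (251 to 562) Pde3a and 630 and 531 Pde3b. The patterns of Pde3a and Adcy2 were the most alike among pairs of members with at least 200 UMIs (r = 0.90 of log2 levels over 14 points, 7 types in 2 libraries, which share depth within a library). Start peaks of Pde3b were highest in pericyte nuclei (80.0 and 63.6) and not in ILC2 nuclei (23.0 and 28.4), whereas its gene body was most open in macrophage (122 and 133), pericyte (95.9 and 84.4) and ILC2 nuclei (86.5 and 88.6).

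The calcium-calmodulin family 1 was low. Pde1c was highest in ILC2 nuclei among the 7 types, at 120 (75.5 to 182) and 112 (84.8 to 144), and reached 504 (218 to 993) and 723 (535 to 956) in mast cell or basophil nuclei, from 8 and 49 UMIs. Pde1a was highest in pericyte nuclei at 110 and 114. Pde10a was highest in myofibroblast or smooth muscle nuclei at 145 (66.1 to 274) and 216 (150 to 302), followed by ILC2 nuclei in the PBS library and by pericyte nuclei in the OVA library. Pde1b, Pde2a and Pde11a had 25, 47 and 15 UMIs. The cGMP-specific Pde9a had 49 UMIs and its highest levels in pericyte nuclei, at 94.4 and 48.1 (6 and 8 UMIs), with fibroblast nuclei at 23.5 and 8.20. The photoreceptor genes Pde6a, Pde6b, Pde6g and Pde6h had 23, 1, 1 and 6 UMIs. Of the members that do not hydrolyse cyclic nucleotides, Pde6d, a chaperone for prenylated proteins, lay between 3.85 and 32.1 across types and Pde12, a mitochondrial enzyme that trims RNA tails, between 0 and 32.8. Pde12 is short, and per 100 kb of span its level in fibroblast nuclei was 237 and 330. Of the members, 12 overlap an annotated gene on the other strand and none on the same strand. Whether the count used strand is not given in the sources used here.

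For 2 of 19 members with start peaks in both libraries, Adcy7 and Pde4a, accessibility was highest in the type with the highest RNA in both libraries. Over 9955 genes that share was 10.8%. With peaks anywhere in the gene, a choice made after seeing the data, it was 5 of 21 members (Adcy2, Adcy5, Adcy7, Pde1c and Pde8a) and 15.9% of 10113 genes. The start count is near its background. It became 7 under the joint filter on RNA and chromatin counts, where 5 types were compared. The share over all genes was not computed under that filter, so the 7 has no background beside it.

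**Figure D3:**
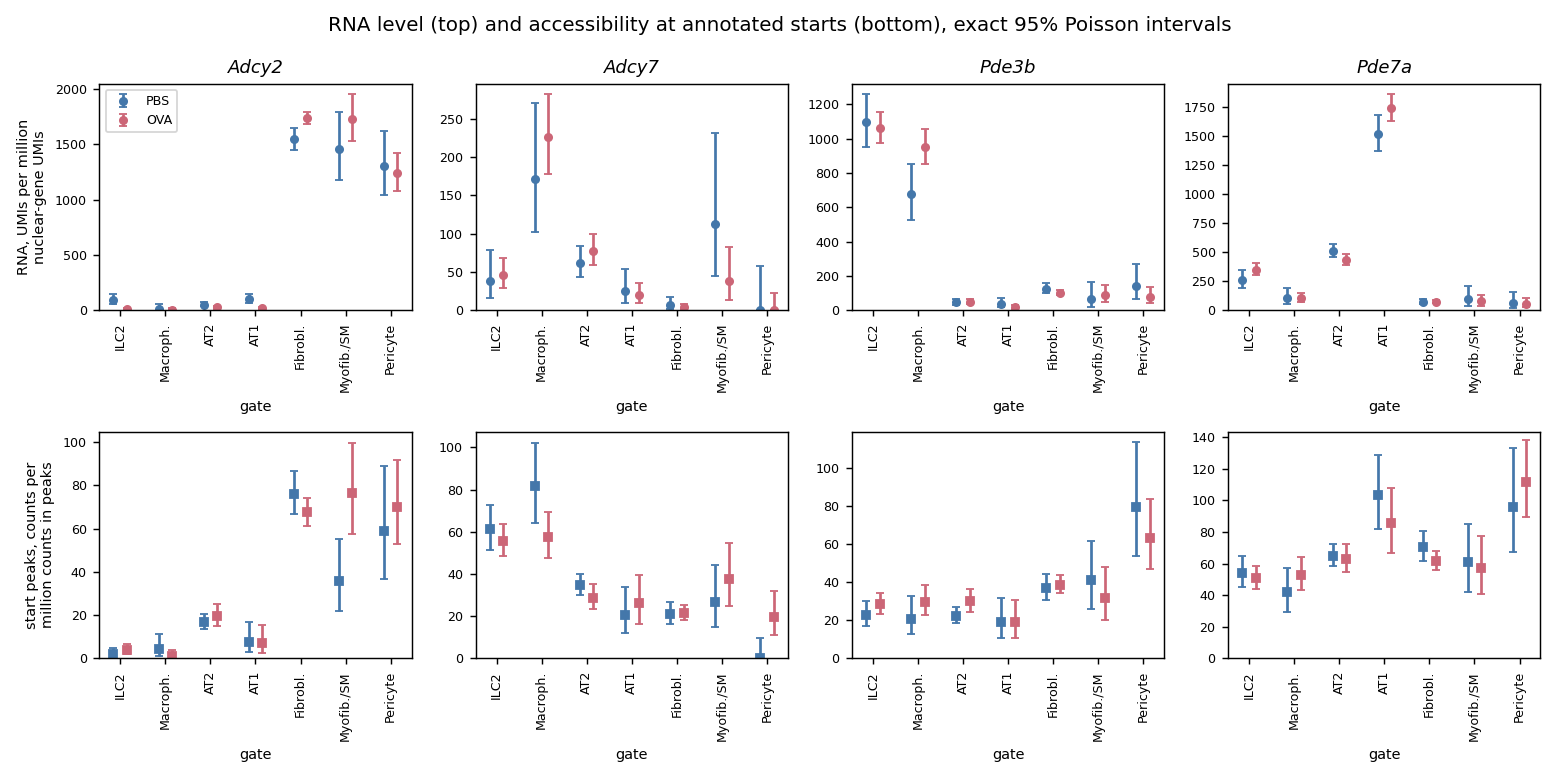
RNA level (top, CPM of nuclear-gene UMIs) and counts in peaks at annotated starts (bottom, CPM of transposition counts in peaks) of 4 members in 7 types, PBS in blue and OVA in red, with exact 95% Poisson intervals. Adcy2 and Adcy7 have their high types in both rows, while Pde3b and Pde7a have pericyte nuclei among the highest at the starts and low RNA there.

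The libraries were then compared within ILC2, macrophage and AT2 nuclei, the types the study followed up, to see whether maternal OVA went with other levels of the members. A gene was counted as apart when its levels differed at least 2-fold and the exact conditional binomial interval of the ratio left out equality, among genes with at least 50 UMIs in the type. These are differences between 2 libraries and not between conditions. Maternal treatment, litter, depth, mitochondrial share and the make-up of a type cannot be told apart here. Of clusters named fibroblast, that led by Cemip held 261 PBS and 864 OVA nuclei and that led by Bmp8a 665 and 313. Of clusters named macrophage, that led by Nrg4 held 250 and 948 and that led by Sh2d1b1 703 and 233. How the assigned nuclei split between such clusters was not examined, and its part in the ratios was not tested.

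In ILC2 nuclei 0 of 9 members were apart, beside 7.02% of 2549 genes. Pde7b had a log2 ratio of OVA over PBS of 0.20 (0.03 to 0.38), Pde3b of -0.04 (-0.28 to 0.20) and Pde4d of 0.26 (-0.11 to 0.65), and the intervals of these 3 exclude a 2-fold difference. The median over 13 members with at least 20 UMIs was 0.26, and over all 4980 such genes 0.04. Of 16 other genes of cAMP and cGMP signalling with enough UMIs, 2 were higher in the OVA library. Calcrl, a receptor of the calcitonin family that couples to Gs, was at 104 and 266 (log2 ratio 1.35, 0.65 to 2.13), and Akap12, an anchor of protein kinase A, at 27.4 and 208 (2.92, 1.66 to 4.58), from 5 and 108 UMIs.

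In macrophage nuclei 0 of 5 members were apart, beside 11.8% of 2025 genes. Pde4d, at 876 and 1500, had a log2 ratio of 0.78 (0.45 to 1.11), Pde3b of 0.49 (0.12 to 0.88) and Pde4b of 0.48 (0.10 to 0.88). All 3 intervals lay above 0, and that of Pde4d reached past 2-fold. The median over 7 members was 0.48 and over 4139 genes 0.20.

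In AT2 nuclei 1 of 8 members was apart, beside 3.78% of 4784 genes. This was Adcy2, at 51.8 (33 UMIs) and 24.7 (19 UMIs), a log2 ratio of -1.07 (-1.96 to -0.21). Its sign turned when nuclei were weighted equally (0.88) or thinned (0.35), so no direction is drawn. Summed fibroblast markers in AT2 nuclei were 512 PBS and 431 OVA CPM and pericyte markers 195 and 44.3, with 10 of 10 markers of each type having a UMI in the PBS library and 9 of 10 in the OVA library. Their part in the result was not tested. Below 50 UMIs no member was counted as apart. There Adcy2 was also at 93.1 and 9.62 in ILC2 (17 and 5 UMIs) and at 98.9 and 17.4 in AT1 nuclei (24 and 9 UMIs). In AT2 nuclei Pde3a was at 43.9 and 7.81 (28 and 6 UMIs). Pde1c, highest in ILC2 nuclei, was at 51.8 and 19.5 in AT2 nuclei (33 and 15 UMIs). Adcy3 went the other way in ILC2 nuclei, at 21.9 and 59.7 (4 and 31 UMIs). Of 15 AT2 members with at least 20 UMIs, 5 had an interval below 0 and 1 above. Of 13 such ILC2 members, 1 had an interval below 0 and 1 above, with ratios from -3.27 to 1.74. Pericyte markers in ILC2 nuclei summed to 82.1 and 23.1, and fibroblast markers to 509 and 497. Pde4d was higher in the OVA library, by 0.36 (0.24 to 0.48). The median over 15 members was -0.21 and over 7816 genes 0.0065. Of 25 pathway genes 3 were lower in the OVA library: Prkg1, the cGMP-dependent kinase, at 449 and 88.5 (-2.34, -2.75 to -1.96), Akap1 (-1.49, -2.47 to -0.58) and Creb5 (-1.07, -1.96 to -0.21). Prkg1 was 6151 and 5812 in pericyte nuclei.

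Fibroblast nuclei, the most numerous, gave 1 of 14 members apart, beside 2.38% of 6310 genes. Pde10a was at 36.9 (22 UMIs) and 78.9 (154 UMIs), a log2 ratio of 1.10 (0.45 to 1.81). Pde3a, at 165 and 304, had 0.89 (0.57 to 1.21), and Pde4d, at 482 and 783, had 0.70 (0.52 to 0.89). The Pde4d ratio was thus above 0 by its interval in macrophage, AT2 and fibroblast nuclei. It was not so in ILC2, AT1 or myofibroblast or smooth muscle nuclei, and pericyte nuclei held few Pde4d UMIs. After thinning, 16.7% of PBS and 14.3% of OVA AT1 nuclei had a Pde4d UMI. In AT1, myofibroblast or smooth muscle and pericyte nuclei, with 3, 4 and 3 members measured, 0 were apart, beside 2.61% of 2914, 5.23% of 880 and 5.16% of 891 genes. So few members say little.

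**Figure D4:**
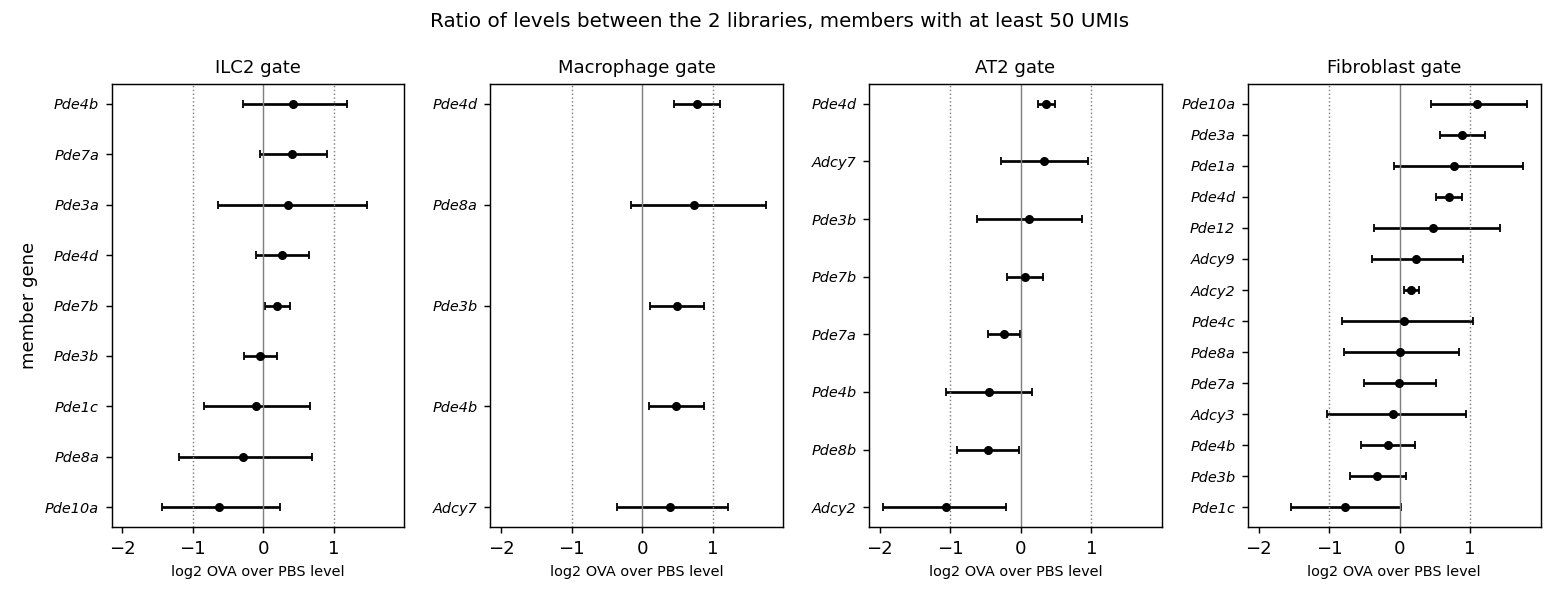
Log2 ratio of the OVA over the PBS level for members with at least 50 UMIs in 4 types, with exact 95% intervals; the solid line marks equality and dotted lines 2-fold. Adcy2 in AT2 nuclei and Pde10a in fibroblast nuclei lie past a dotted line, and Pde4d lies right of 0 in all 4 types, its interval including 0 in ILC2 nuclei.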

How the data were processed

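RNA and open chromatin were read from the same fetal lung nuclei with the 10x Multiome kit. The authors deposited raw UMI counts per gene and transposition counts per peak, not normalized, made with Cell Ranger ARC 2.0.1 on mm10, with peaks called in each library separately. Member names and positions came from the files and GENCODE M21 (GRCm38), whose gene spans held the start given in the files for 99.8% of genes and for all 34 members.

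The filter required 200 genes and allowed 60% mitochondrial UMIs per nucleus (4572 of 8019 PBS and 5246 of 5960 OVA barcodes). Doublets were called here as the 293 and 250 nuclei with most simulated doublets among 50 neighbours (2 simulated per nucleus), at a preset 0.8% per 1000 barcodes, and left out. Total gene UMIs were 11473351 PBS and 13774959 OVA. Levels used nuclear-gene UMIs as denominator because mitochondrial RNA is not nuclear and its share differed; scaling to all genes, as in the study, was an alternative. Start peaks overlapped 1000 bp either side of an annotated start. Transposition counts come in pairs from a fragment, so their Poisson intervals are too narrow. Clusters (Leiden, resolution 1.0, 30 components) were an alternative to the marker rule.

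With 1 library per group there was no test: ratios had exact conditional binomial 95% intervals. Members with at least 300 UMIs over all assigned nuclei were described singly (11 of 34), others by counts, or by name if at 0, named for a function they lack or past 2-fold, and further members were named after their values were seen. The members, markers and pathway list were chosen with earlier results of these data known. The ratio and order steps were tested on simulated data. The value of 1 pathway gene is not reported here. Peaks anywhere in a gene and ratios of single members under the alternatives were added after seeing the data. Analyses used Python 3.11.15 with numpy 2.4.6, scipy 1.17.1, scikit-learn 1.9.0 and leidenalg 0.10.2.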

Additional observations from a re-analysis of the deposited data

Results flagged for a closer look

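Some ratios between the libraries went opposite ways in 2 types, each with a counting interval that leaves out equality. The difference between types was not tested, since each library is 1 sample. Among the members, Pde7a had a log2 ratio of OVA over PBS of 0.20 in AT1 and -0.24 in AT2 nuclei, 0.44 apart, and Adcy2 of 0.17 in fibroblast and -1.07 in AT2 nuclei, 1.23 apart. The AT2 values of both changed sign under other settings.

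Among the other pathway genes, Gnas, the Gs alpha subunit, was at 0.29 in fibroblast nuclei, 0.62 above its ratio in AT2 (-0.33) and 0.81 above that in AT1 nuclei (-0.52). Creb5 was at 1.54 in myofibroblast or smooth muscle and -1.07 in AT2 nuclei, 2.61 apart. Crtc3, a CREB coactivator, was at 0.98 in macrophage and -0.38 in fibroblast nuclei, 1.36 apart. Prkg1 was at 0.11 in fibroblast and 0.53 in myofibroblast or smooth muscle nuclei. These ratios were 2.46 and 2.87 above AT2 (-2.34) and 0.82 and 1.24 above AT1 nuclei (-0.71).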

How the results depend on the processing

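No paired analysis was possible because neither group had a second library. The count of members with the same highest type (19) lay between 13 and 24 under the other alternatives. It was 11 of 13 members when nuclei were thinned to 500 UMIs, where fewer members and 5 types were left. These counts are not all out of the 22 members of the main setting. With a minimum of 200 UMIs 13 members could be counted, with a minimum of 20 UMIs 27 and with clusters 28. In ILC2 nuclei the count of members apart, 0, became 1 with doublet calls kept, with the mean of single nuclei and with a minimum of 20 UMIs. In macrophage nuclei, 0 became 1 with 2 markers, with clusters, with the mean of single nuclei and at 1.5-fold. In AT2 nuclei, 1 became 0 with all gene UMIs, at most 40% mitochondrial UMIs, the joint filter, 4 markers, clusters, the mean of single nuclei, thinning or a minimum of 100 UMIs, and 3 with a minimum of 20. The pathway count of 6 became 3 with thinning or a minimum of 100 UMIs and 13 with a minimum of 20 or at 1.5-fold. The count of start peaks highest in the RNA type, 2, became 4 with at most 40% mitochondrial UMIs, 7 with the joint filter or 4 markers, and 6 with clusters or thinning. Types compared then numbered 4 with at most 40% mitochondrial UMIs or 4 markers, 5 with the joint filter or thinning and 8 with clusters. For none of the alternatives in this paragraph was the share over all genes computed. The changed counts of members apart, pathway genes and start peaks therefore have no background beside them. A lower UMI minimum or fold admits more of all genes too, and by how much was not counted. In AT2 nuclei, Pde7a turned from -0.24 to 0.0043 with all gene UMIs, Adcy2 from -1.07 to 0.88 with the mean of single nuclei and 0.35 with thinning, and Pde8b from -0.47 to 0.14 with clusters, 0.35 with the mean and 0.10 with thinning. The cause was not tested. With at most 40% mitochondrial UMIs or 4 markers, macrophage nuclei numbered 24 and 28 in the PBS library, under 50, and gave no value.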
